A study of Mus musculus with 6 samples.

Results

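Small leucine-rich proteoglycans are secreted proteins of the extracellular matrix whose core is a row of leucine-rich repeats, and most of them carry chondroitin, dermatan or keratan sulfate chains. They bind collagen fibrils and set how the fibrils thicken and pack, and several also bind growth factors of the TGF-beta family or act on receptors of the cell surface. In muscle, periosteum and tendon they are made mainly by fibroblasts and related connective tissue cells. This account follows 10 genes of the family, Fmod, Aspn, Dcn, Bgn, Lum, Ogn, Omd, Prelp, Podn and Chad, taken by symbol from a table of 23351 genes. The 10 were chosen by family name and from their levels and differences in these same libraries, so their values are given as a description, and what is counted over them supports nothing further.

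RNA sequencing was carried out on repair tissue from C57BL/6 mice, a mix of periosteum and quadriceps muscle lying on injured bone. The 3 Clod-lip libraries are taken here as animals given clodronate liposomes, which kill phagocytic cells that engulf them, and the 3 Empty-lip libraries as the liposome control. The labels give no dose, day, sex or age, and do not tell whether the 3 libraries of each group are different animals, so any p-value measures the spread between these libraries, which may be technical. The title of the series points to factors from macrophages in vessel growth and wound healing, and the comparison sets tissue in which phagocytes were targeted against its liposome control.

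Expression was deposited as FPKM, fragment counts divided by the length of the transcript and the size of the library, which allows levels to be set side by side between genes. MicroRNA and small nucleolar RNA genes took 0.0968% to 32.7% of all FPKM in Clod-lip and 39.1% to 47.7% in Empty-lip, with Clod-lip 2 and 3 under 1%; the remaining genes added up to 561424 to 606634 FPKM. Between 15041 and 15294 genes per library had a value above 0. Clod-lip 2 stood apart in its macrophage markers, which summed to 6827 FPKM, against 3944 and 4737 FPKM in the other Clod-lip libraries and 6954 to 7388 FPKM in Empty-lip, and counts of calls without it are given beside those with it. Read counts were not used here, so the counting error of low values is unknown. The tissue named by the labels was visible in its transcripts: Acta1, the actin of skeletal muscle, averaged 6650.4 ± 574 FPKM in Clod-lip and 3710.3 ± 547 in Empty-lip (SD, n = 3 each, as for every mean below), and Postn, a matrix protein abundant in periosteum, 483 ± 34.8 FPKM in Clod-lip against 457 ± 9.47 FPKM in Empty-lip. Cartilage markers were low, with 10 of them summing to 9.51 to 10.7 FPKM in Clod-lip and 5.21 to 6.90 FPKM in Empty-lip. Col2a1, the main cartilage collagen, held apart in the list of fibril partners and named after its values were seen, was at 6.82 to 13.7 FPKM in Clod-lip and 4.53 to 9.86 in Empty-lip. In bulk tissue, fewer cells of a type and less RNA per cell cannot be told apart.

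The family was led by biglycan and decorin in every library. All 10 genes had a higher mean in Clod-lip, by 1.05-fold for Bgn up to 1.82-fold for Omd, and for 8 of the 10 the lowest Clod-lip library lay above the highest Empty-lip library. Over the 13408 genes that averaged 0.5 FPKM or more, 14.0% stood apart in that way and direction. Of the same 13408 genes, 6453 had a positive difference in log2(FPKM + 1). The exceptions were Bgn and Podn. The summed FPKM of the 10 genes was 1519, 1507 and 1687 in Clod-lip 1, 2 and 3, against 1283, 1259.7 and 1141 in Empty-lip 1, 2 and 3. Without Bgn the sums were 989.7, 959.8 and 1074 FPKM in Clod-lip and 746, 725 and 604 in Empty-lip. The 2 groups did not overlap in either sum, and the gap was wider without Bgn, at 1.46-fold against 1.28-fold between the means.

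**Figure D1:**
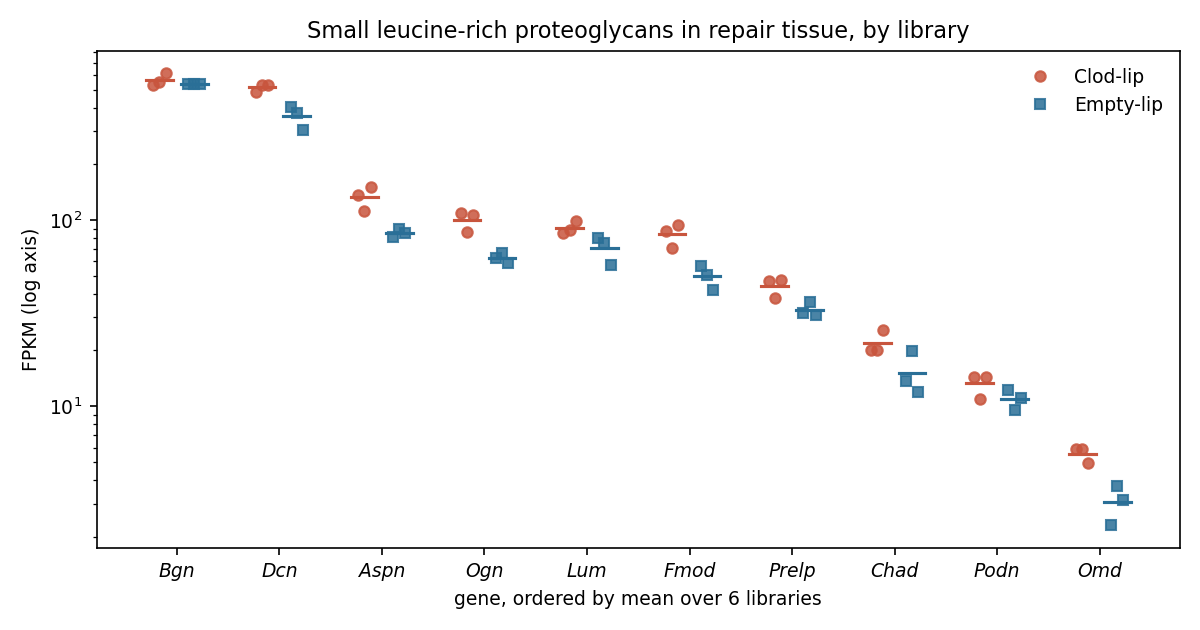
FPKM of the 10 genes (log axis) in each library, with Clod-lip as circles and Empty-lip as squares in the order of their replicate numbers; the short lines are group means. The groups overlap for Bgn and Podn, and for Chad they nearly touch, at 19.9 FPKM in Clod-lip and 19.8 in Empty-lip.

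Levels spanned about 2 orders of magnitude and kept nearly the same order throughout. Bgn, Dcn and Aspn were ranked 1, 2 and 3 in all 6 libraries, and Prelp, Chad, Podn and Omd 7, 8, 9 and 10. Lum, Ogn and Fmod shared ranks 4 to 6 and changed places between libraries. In Clod-lip the ranges over libraries overlapped between Bgn and Dcn, between Ogn and Lum, and between Lum and Fmod. In Empty-lip they overlapped between Lum and Ogn and between Chad and Podn. The other neighbours in each order were separate. Within groups the coefficient of variation of the 10 genes ran from 5.14% to 15.3% in Clod-lip and from 0.288% to 27.6% in Empty-lip. The lowest in Empty-lip was that of Bgn and the highest that of Chad; in Clod-lip these were Dcn and Podn. Clod-lip 3 was the highest of all libraries for 7 genes and Clod-lip 1 for the other 3, while Empty-lip 3 was the lowest for 6.

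Decorin, biglycan and asporin are close relatives, the class I members. Decorin binds collagen and TGF-beta and carries a single chondroitin or dermatan sulfate chain. Dcn stood at 484, 528 and 532 FPKM in Clod-lip 1, 2 and 3, against 406, 374 and 304 FPKM in Empty-lip 1, 2 and 3. Every Clod-lip library was above every Empty-lip library, with means of 515 ± 26.5 FPKM in Clod-lip against 361 ± 52.4 FPKM in Empty-lip and a difference of 0.52 ± 0.12 (SE) on the log2(FPKM + 1) scale used for all differences here. This scale understates the change of genes with low FPKM, the more so the lower they are.

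Biglycan, which carries a pair of such chains and, when released from matrix, is a ligand of Toll-like receptors, behaved differently. Bgn stood at 529, 548 and 613 FPKM in Clod-lip and at 536, 534 and 537 in Empty-lip. The Empty-lip libraries were nearly identical and Clod-lip 1 lay below all of them, so the groups overlapped, with a log2 difference of 0.07 ± 0.08. The ratio of Dcn to Bgn within a library, which does not depend on how libraries are scaled, was 0.915, 0.963 and 0.869 in Clod-lip and 0.757, 0.699 and 0.565 in Empty-lip. Bgn held 34.8% to 36.3% of the summed FPKM of the 10 genes in Clod-lip and 41.8% to 47.1% in Empty-lip, without overlap.

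Asporin has a run of aspartate in place of the attachment site for a sugar chain, binds collagen and calcium, and restrains TGF-beta. Aspn was at 137, 111 and 151 FPKM in Clod-lip and 80.6, 89.9 and 85.2 in Empty-lip. The groups were well apart, at 133 ± 20.0 FPKM in Clod-lip against 85.2 ± 4.67 FPKM in Empty-lip, a 1.56-fold ratio and a log2 difference of 0.62 ± 0.12.

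**Figure D2:**
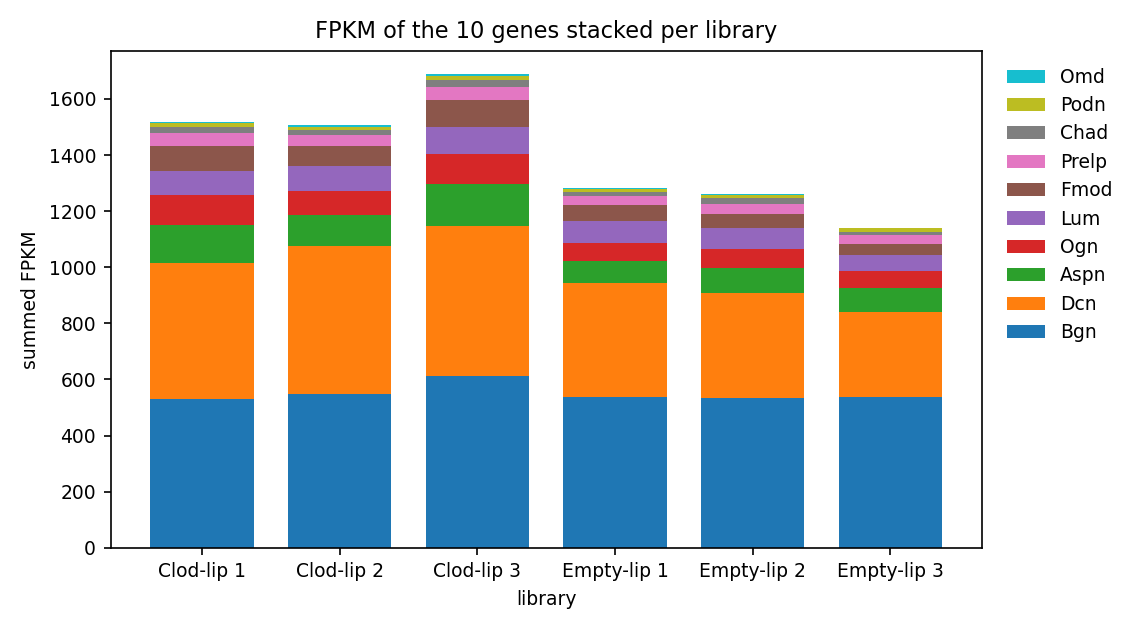
FPKM of the 10 genes stacked for each library, Clod-lip at the left and Empty-lip at the right. The bottom segment, Bgn, has almost the same height in all 6 bars, while the sum ranges from 1141 FPKM in Empty-lip 3 to 1687 FPKM in Clod-lip 3.

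The class II members are fibromodulin, lumican, PRELP and osteomodulin, most of which carry keratan sulfate or sulfated tyrosines and bind fibrils. Fibromodulin is a regulator of fibril thickness in tendon. Fmod was at 87.1, 70.9 and 94.1 FPKM in Clod-lip and 57.0, 50.7 and 41.9 in Empty-lip. The lowest Clod-lip value exceeded the highest Empty-lip value by 13.9 FPKM, and the log2 difference was 0.74 ± 0.14, a 1.69-fold ratio of means.

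Lumican shares its site on collagen with fibromodulin. Lum was at 85.1, 88.6 and 98.3 FPKM in Clod-lip and 80.2, 74.8 and 57.4 in Empty-lip. The groups were separate by a small margin, with Empty-lip 3 well below the rest, and the log2 difference was 0.36 ± 0.13. The ratio of Fmod to Lum was 1.02, 0.800 and 0.957 in Clod-lip and 0.711, 0.677 and 0.731 in Empty-lip, again without overlap.

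PRELP anchors basement membranes to the tissue beneath through a basic, heparin binding end. Prelp was at 47.2, 38.3 and 47.8 FPKM in Clod-lip and 31.8, 36.3 and 31.1 in Empty-lip, with Clod-lip 2 close to Empty-lip 2 and a log2 difference of 0.41 ± 0.11. Osteomodulin, an acidic member found in mineralised matrix, was the least abundant. Omd was at 5.90, 5.88 and 4.94 FPKM in Clod-lip and 2.299, 3.72 and 3.16 in Empty-lip, a log2 difference of 0.71 ± 0.16. The authors' deposited table tested Omd and did not call it (q = 0.762).

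Osteoglycin, also named mimecan, is a class III member with a short row of repeats. Ogn was at 109, 86.1 and 106 FPKM in Clod-lip and 62.8, 66.9 and 58.7 in Empty-lip. Its groups were far apart in relation to their spread, with means of 100.4 ± 12.5 FPKM in Clod-lip against 62.8 ± 4.11 FPKM in Empty-lip and a log2 difference of 0.66 ± 0.11. Its ratio to Aspn stayed level: Aspn over Ogn was 1.25, 1.29 and 1.42 in Clod-lip and 1.28, 1.34 and 1.45 in Empty-lip.

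Chondroadherin, a class IV member that binds an integrin and lacks sugar chains of this kind, is best known from cartilage. Chad was at 19.9, 20.2 and 25.5 FPKM in Clod-lip and 13.6, 19.8 and 11.9 in Empty-lip, so that only 0.122 FPKM separated Clod-lip 1 from Empty-lip 2, and the log2 difference was 0.53 ± 0.19. Podocan, a class V member, restrains the growth of smooth muscle cells of vessels. Podn was at 14.5, 10.9 and 14.4 FPKM in Clod-lip and 12.2, 9.54 and 11.1 in Empty-lip, with Clod-lip 2 inside the Empty-lip range and a log2 difference of 0.25 ± 0.14.

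The median log2 difference of the 10 genes was 0.52, and that of all 13408 genes tested was -0.01, with quartiles at -0.15 and 0.16. Fmod, Omd, Ogn and Aspn, 4 of the 10, lay above the 95th percentile of all genes, which was 0.58. By limma with Benjamini-Hochberg adjustment over all genes, 3 of the 10, Fmod, Aspn and Ogn, were past the threshold of 0.05, all higher in Clod-lip. Over all genes 4.05% were past it, and 2.84% were past it and higher in Clod-lip. Of the 10 genes, 5 were called in the authors' deposited table, Fmod, Aspn, Dcn, Ogn and Prelp, where 12.2% of the genes the authors tested were called. As the genes were picked with this comparison known, nothing is read from these counts. The count of 3 was 4 without Clod-lip 2, 1 without Empty-lip 1, and 0 with any single library of the other 4 left out. Over all genes, 543 passed with every library kept, 1436 without Clod-lip 2 and 302 without Empty-lip 1. With any of the other 4 left out, 17 to 93 of all genes passed. The median of the 10 genes stayed between 0.39 and 0.61.

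**Figure D3:**
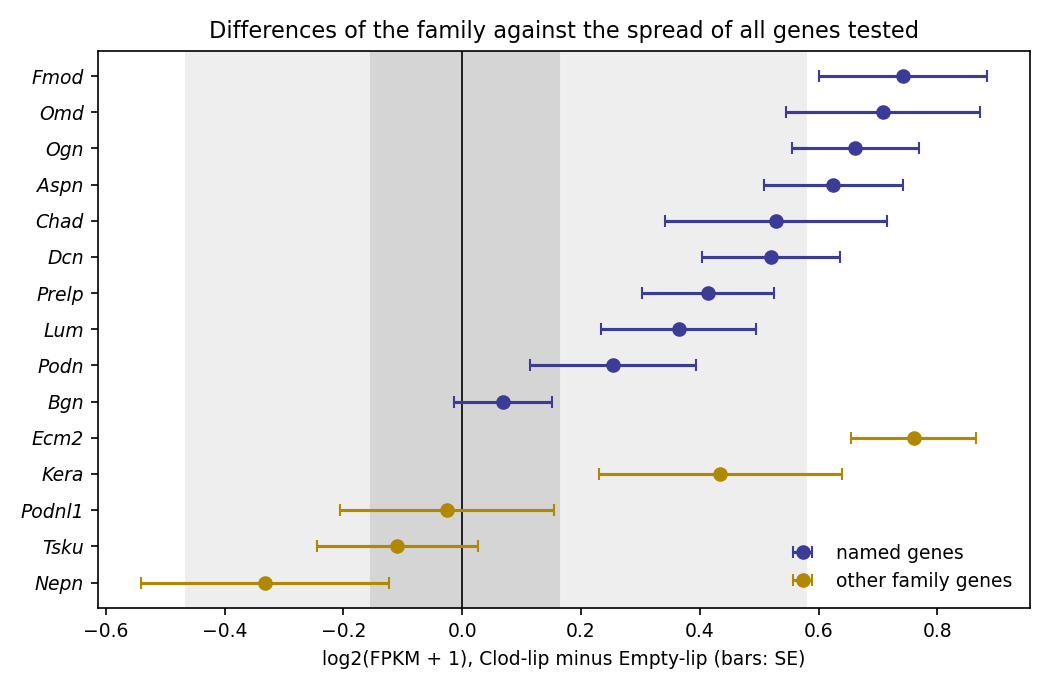
Difference between Clod-lip and Empty-lip in log2(FPKM + 1), with its SE, for the 10 named genes and the 5 other family genes that were tested. The dark band holds the middle 50% of all genes tested and the light band the middle 90%; Fmod, Omd, Ogn, Aspn and Ecm2 lie to its right.

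Of 9 further genes of the family or its near relatives, 5 had a mean of at least 0.5 FPKM and were tested. Ecm2, a matrix protein with leucine-rich repeats, was the gene of these 5 that passed; the authors' deposited table did not call it (q = 0.356). It was at 11.2, 12.3 and 12.5 FPKM in Clod-lip and 7.28, 6.64 and 6.13 in Empty-lip, without overlap, and rose by 0.76 ± 0.11 on the log2 scale (limma adjusted p = 0.0163). It did not pass with the replicate number as a block, nor without Clod-lip 1, Clod-lip 3, Empty-lip 2 or Empty-lip 3, with log2 differences from 0.71 to 0.82 over the libraries left out and limma adjusted p from 0.0131 to 0.0850 over all alternatives.

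Keratocan, a relative of lumican, was spread widely. Kera was at 9.95, 14.9 and 17.4 FPKM in Clod-lip and 11.9, 9.72 and 8.40 in Empty-lip, with Clod-lip 1 inside the Empty-lip range and a limma adjusted p of 0.268. Tsku, which encodes the secreted protein tsukushi, was at 11.6 ± 1.31 FPKM in Clod-lip and 12.6 ± 1.96 in Empty-lip (log2 difference -0.11, limma adjusted p = 0.703). Podnl1 and Nepn were low, at 1.53 ± 0.0595 and 0.376 ± 0.182 FPKM in Clod-lip against 1.61 ± 0.511 and 0.741 ± 0.296 FPKM in Empty-lip, and did not pass (limma adjusted p = 0.956 and 0.410). Epyc, Optc, Nyx and Chadl had means under 0.5 FPKM and were not tested, and Nyx was listed at 0 in all 3 Empty-lip libraries.

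Several family genes sit next to each other in the mouse genome. On mm10, Ecm2, Aspn, Omd and Ogn follow each other on the plus strand of chromosome 13 within 119.7 kb, from 49504810 to 49624501 in GENCODE. Dcn, Lum, Kera and Epyc lie on the plus strand of chromosome 10 within 203 kb, and Optc, Prelp and Fmod on chromosome 1 within 151 kb, with Fmod on the opposite strand to the others. Bgn is on chromosome X, Podn on chromosome 4 and Chad on chromosome 11. No other protein coding gene lies within the spans on chromosomes 10 and 1.

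The 4 neighbours on chromosome 13 had log2 differences of 0.76, 0.62, 0.71 and 0.66 in chromosomal order, and none of them had overlapping groups. Over all genes tested, 14.0% stood apart in that direction. Aspn, Omd and Ogn are members chosen with these values known, so nothing is read from their likeness. On chromosome 10 the log2 differences were 0.52 for Dcn, 0.36 for Lum and 0.43 for Kera, while Epyc did not exceed 0.378 FPKM in any library. On chromosome 1, Prelp had 0.41 and Fmod 0.74, and Optc did not exceed 0.429 FPKM. The span on chromosome 13 lies inside Cenpp, a centromere protein gene on the minus strand, and the deposited table gives Aspn, Omd, Ogn, Ecm2 and Cenpp the same position. Their exons share 0 bases with those of Cenpp in GENCODE's basic set. Cenpp, looked at after its values were seen, was at 4.62, 7.20 and 6.18 FPKM in Clod-lip and 6.42, 4.94 and 9.06 in Empty-lip, with overlapping groups and a log2 difference of -0.14 ± 0.22. Whether the authors' counting used strand is not given in the sources used here. Chad likewise lies within Acsf2 on the other strand, with 0 exon bases shared, and Acsf2, named for this overlap after its values were seen, had a log2 difference of -0.03 ± 0.13. Podn overlaps Scp2 on the same strand in GENCODE, also with 0 exon bases shared. In the deposited table Podn has a shorter span, from 108014792 to 108032090, and no other gene has the same position. Scp2, named after its values were seen too, was at 60.3 ± 1.43 FPKM in Clod-lip and 60.3 ± 2.40 in Empty-lip.

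**Figure D4:**
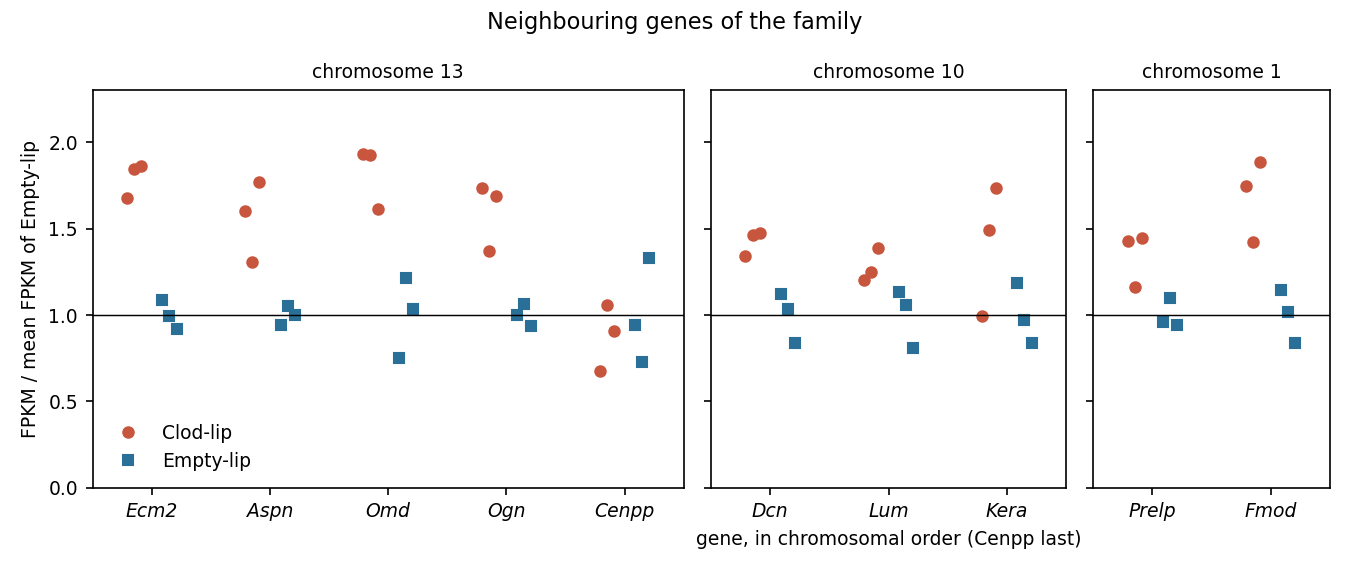
FPKM of each library divided by the mean of the Empty-lip libraries, for neighbouring family genes on 3 chromosomes, Clod-lip as circles at the left of each pair and Empty-lip as squares; the line marks 1. The 12 Clod-lip points of Ecm2, Aspn, Omd and Ogn all lie above their Empty-lip points, as is so for 14.0% of all genes tested. The Clod-lip points of Cenpp, which overlaps these genes on the other strand, do not all lie above.

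The 250 bases before the RefSeq start of the 4 neighbours on chromosome 13 are shown with those of Bgn, the abundant member whose groups overlapped (build GRCm38.p6, plus strand, 5′ to 3′). The motifs were picked after the sequences had been read. Capitals mark matches to TATAAA or ACCACA, the core of RUNX sites, on either strand; overlapping matches run together. Also searched, on either strand, were TGANTCA, the AP-1 site, and the CArG box, neither of which matched in the windows of the family genes.
Ecm2, chr13:49504560-49504809: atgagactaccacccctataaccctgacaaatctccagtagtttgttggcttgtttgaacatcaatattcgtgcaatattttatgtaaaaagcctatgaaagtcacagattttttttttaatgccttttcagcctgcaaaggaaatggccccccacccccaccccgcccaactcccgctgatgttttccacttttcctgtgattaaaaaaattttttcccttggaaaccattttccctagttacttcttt
Aspn, chr13:49544193-49544442: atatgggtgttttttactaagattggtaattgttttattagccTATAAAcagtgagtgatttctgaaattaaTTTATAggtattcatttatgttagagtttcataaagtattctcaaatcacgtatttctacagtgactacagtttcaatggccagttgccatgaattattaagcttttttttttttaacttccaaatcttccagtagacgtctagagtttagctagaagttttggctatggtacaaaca
Omd, chr13:49582212-49582461: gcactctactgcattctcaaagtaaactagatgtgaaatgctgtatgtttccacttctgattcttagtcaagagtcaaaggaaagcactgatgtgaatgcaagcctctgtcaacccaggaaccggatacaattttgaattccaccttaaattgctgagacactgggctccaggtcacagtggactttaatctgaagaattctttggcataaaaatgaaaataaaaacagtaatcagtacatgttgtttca
Ogn, chr13:49607765-49608014: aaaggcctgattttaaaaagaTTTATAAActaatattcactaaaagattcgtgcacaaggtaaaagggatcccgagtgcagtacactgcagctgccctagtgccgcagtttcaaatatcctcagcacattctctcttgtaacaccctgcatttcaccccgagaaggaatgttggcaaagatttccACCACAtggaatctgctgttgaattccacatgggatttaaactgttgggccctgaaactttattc
Bgn, chrX:73483351-73483600: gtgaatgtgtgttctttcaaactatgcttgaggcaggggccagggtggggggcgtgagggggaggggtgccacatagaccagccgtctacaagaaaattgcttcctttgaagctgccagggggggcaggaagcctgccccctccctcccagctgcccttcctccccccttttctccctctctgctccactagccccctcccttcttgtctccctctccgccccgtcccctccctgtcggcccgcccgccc

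The chromosome 13 windows are poor in G and C. The share of G and C was 40.0% for Ecm2, 30.0% for Aspn, 38.4% for Omd and 42.0% for Ogn, all under the lower quartile of 45.2% over 32841 windows of the same length, and 64.4% for Bgn, above the upper quartile of 61.2%. Low shares were also found for the neighbours Epyc and Kera on chromosome 10, at 39.2% and 42.4%. They were found away from these neighbours too, at 40.4% for Nepn, elsewhere on chromosome 10, and 44.8% for Nyx, on chromosome X. Fmod and Prelp, at 51.2% and 55.6%, were near the median of 52.4%, and Podn, at 78.0%, was above the 95th percentile of 73.6%. TATAAA was found in Aspn, at 207 and 178 bases before the start, in Ogn, as overlapping matches at 229 and 227 bases, in Chad, at 28 bases, and in Nepn, at 29 bases before the start, against 12.4% of all windows. ACCACA was found in Ogn, at 65 bases before the start, against 14.0% of all windows. TGANTCA is in 6.75% and the CArG box in 1.47% of all windows. A match describes letters, not a site in use. Windows were found for 8 of the 10 genes, with none for Dcn and Lum.

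Genes that build, hold or read the family were also tested. Of 93 tested genes in 7 lists of partners, with the further family genes among them, 1 rose and 1 fell by limma and 91 did not pass. At an unadjusted p under 0.05 there were 25. Over all genes 21.8% were under it, which is the background for this count and for those of the single lists and markers given next. The median log2 difference of the 93 was -0.01, as it was over all genes. The count of 2 was 15 without Clod-lip 2, of which 4 were higher, 1 without Empty-lip 1, and 0 with any single library of the other 4 left out. Without Clod-lip 2, 10.7% of all genes passed. Without Empty-lip 1, 302 of all genes passed, and 17 to 93 with any of the other 4 left out.

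Of 20 enzymes that make the linker, chondroitin and dermatan sulfate, 0 passed by limma, 3 had an unadjusted p under 0.05, and the median was -0.04, or 0.016 without Clod-lip 1. Without Clod-lip 2, 1 of the 20 fell. Dse, the epimerase that turns chondroitin into dermatan sulfate, was at 25.8 ± 1.26 FPKM in Clod-lip and 32.0 ± 2.68 in Empty-lip, and Chpf2, a chain polymerising factor, at 25.1 ± 3.33 FPKM in Clod-lip against 21.9 ± 2.18 FPKM in Empty-lip (limma adjusted p = 0.108 and 0.422). Of 6 tested enzymes of keratan sulfate, 1 fell, 0 rose and 5 did not pass. B3gnt7, which extends keratan chains, was at 1.15, 0.546 and 0.863 FPKM in Clod-lip and 2.04, 2.92 and 2.53 in Empty-lip, without overlap, and fell by 0.92 ± 0.19 on the log2 scale (limma adjusted p = 0.0409). It passed among the libraries left out only without Clod-lip 2, and not with the replicate number as a block, nor with no filter on low values, with limma adjusted p from 0.0346 to 0.146 over all alternatives; with a pseudocount of 0.1 the log2 difference was -1.48. The other 5 had negative log2 differences as well. Without Clod-lip 2, 2 of the 6 fell, B3gnt7 and B4galt1. With all libraries B4galt1, named after its values were seen, did not pass (log2 difference -0.38, limma adjusted p = 0.103). It was at 28.7, 38.8 and 33.3 FPKM in Clod-lip and 43.0, 45.3 and 43.0 in Empty-lip, without overlap.

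Of 15 fibril partners, 0 passed by limma, 4 had an unadjusted p under 0.05, and the median was 0.14. Leaving out Clod-lip 2, 1 of the 15, Lox, rose. Col1a1 and Col3a1, the main fibrillar collagens, were at 1112 ± 77.4 and 1516 ± 102 FPKM in Clod-lip against 1136 ± 103 and 1579.5 ± 178 FPKM in Empty-lip, with log2 differences of -0.03 and -0.06 that had the opposite sign under quantile normalization, at 0.060 and 0.033. Lox, which crosslinks collagen and was named after its values were seen, was at 250.4 ± 27.8 FPKM in Clod-lip against 184 ± 11.5 FPKM in Empty-lip (log2 0.44, limma adjusted p = 0.0557).

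Of 18 signalling partners, 0 passed by limma, 8 had an unadjusted p under 0.05, and the median was -0.14. That median was -0.33 without Clod-lip 2, when 5 of the 18 fell, and had the opposite sign without Clod-lip 1, at 0.099, and without Empty-lip 1, at 0.065. Tgfb1, the growth factor that decorin, biglycan and asporin can bind, was at 71.4 ± 13.9 FPKM in Clod-lip and 93.9 ± 10.5 in Empty-lip (log2 difference -0.40, limma adjusted p = 0.163). It passed without Clod-lip 2, at -0.55. Its relatives Tgfb2 and Tgfb3, named after their values were seen, had differences of opposite sign, 0.42 and 0.42, with limma adjusted p = 0.129 and 0.0934, and each of their Clod-lip libraries lay above all Empty-lip libraries. Cd44, a hyaluronan receptor, was at 85.5 ± 7.46 FPKM in Clod-lip against 98.1 ± 5.74 FPKM in Empty-lip (limma adjusted p = 0.246). Tlr2 and Tlr4, the receptors for free biglycan, also named after their values were seen, were at 22.7 ± 11.7 and 13.5 ± 4.93 FPKM in Clod-lip and 23.7 ± 6.58 and 19.4 ± 0.956 in Empty-lip (limma adjusted p = 0.858 and 0.196). Tlr4, but not Tlr2, was among the 5 that fell without Clod-lip 2.

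The list of proteases that trim or cut the family also held Pcolce, which is not a protease itself. Of the 9 tested genes of this list, 0 passed by limma, 2 had an unadjusted p under 0.05, and the median was -0.09. That median was 0.022 without Clod-lip 1 and 0.0072 without Empty-lip 1. Without Clod-lip 2, 1 of the 9 fell. Pcolce, an enhancer of procollagen cleavage, was at 188 ± 9.14 FPKM in Clod-lip and 185 ± 13.6 in Empty-lip, and Mmp14, a metalloproteinase of the cell membrane, at 110.1 ± 15.6 FPKM in Clod-lip against 121 ± 9.36 FPKM in Empty-lip. Of 20 other proteoglycans tested, 0 passed by limma, 5 had an unadjusted p under 0.05, and the median was 0.19, or 0.067 over those with a mean of at least 5 FPKM. Without Clod-lip 2, 2 of the 20 rose and 2 fell. Srgn, the proteoglycan of white blood cell granules, was at 181 ± 147 FPKM in Clod-lip and 265 ± 73.7 in Empty-lip, and passed without Clod-lip 2, at a log2 difference of -1.42. Prg4, lubricin, was at 106 ± 13.8 FPKM in Clod-lip against 99.99 ± 10.3 FPKM in Empty-lip (limma adjusted p = 0.773).

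**Figure D5:**
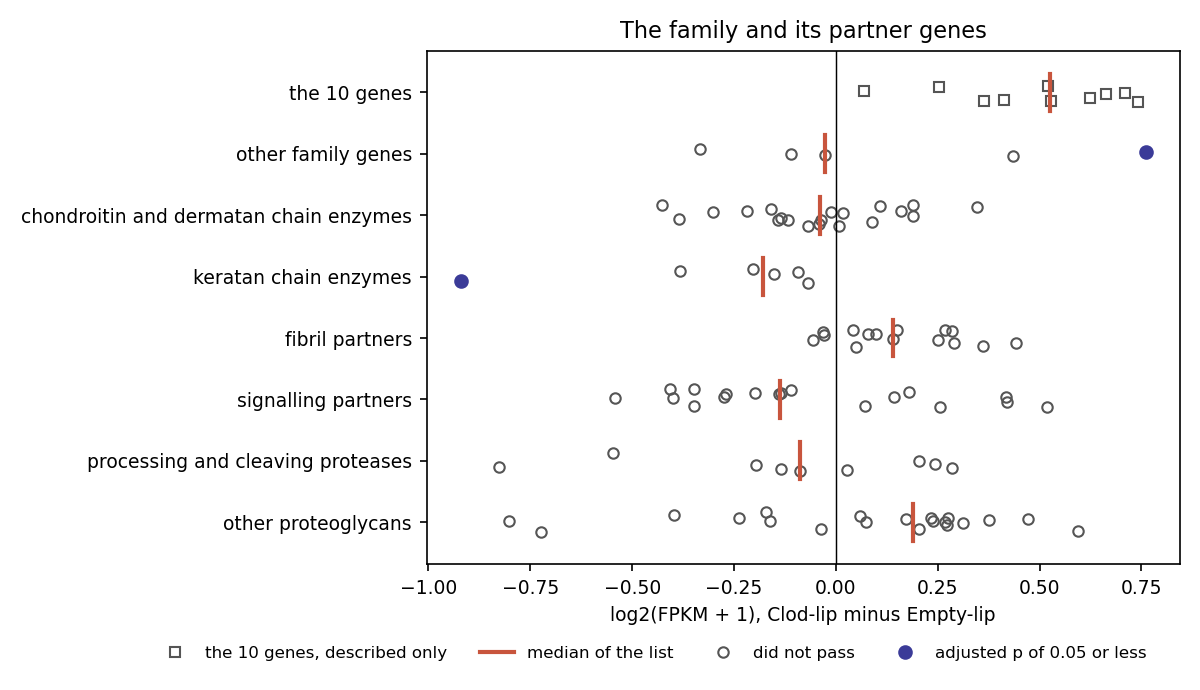
Difference between Clod-lip and Empty-lip in log2(FPKM + 1) for each tested gene of the family and of the partner lists; filled points passed at an adjusted p of 0.05 or less, squares are the 10 genes, which are described only, and the vertical bars are list medians. Ecm2 among the other family genes, at 0.76, and B3gnt7 among the keratan enzymes, at -0.92, are the filled points.

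Markers of several cell types moved between the groups in the same libraries, as given here list by list. Of 12 tested fibroblast markers, 2 rose (Mfap4 and Islr), 1 fell (Thy1) and 9 did not pass, with a median of 0.27, and their summed level was 961 to 1022 FPKM in Clod-lip and 865 to 912 in Empty-lip. Postn alone gave 483 of the mean sum of 988 FPKM for Clod-lip, and 457 of 884 for Empty-lip. Of the 12 differences, 9 were positive and 3 negative. The groups stood apart for 6 genes upward and for 2 downward, Thy1 and Pdgfra. Pdgfra, picked out with its values known, had a log2 difference of -0.25 (limma adjusted p = 0.132). Tcf21 was listed at 0 in all libraries. Dpt, dermatopontin, a decorin binding matrix protein, was at 132 ± 16.6 FPKM in Clod-lip and 104 ± 12.9 in Empty-lip. Without Clod-lip 2 the counts of passing markers were again 2 higher and 1 lower, while 0 passed with any single library of the other 5 left out. With the replicate number as a block or without a trend 0 passed, and with no filter on low values 1, Thy1.

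Tendon markers summed to 519 to 638 FPKM in Clod-lip and 451 to 509 in Empty-lip, and 1 of 7, Cilp, rose (130.1 ± 25.7 FPKM in Clod-lip against 71.5 ± 4.01 FPKM in Empty-lip, log2 0.83 ± 0.15, limma adjusted p = 0.0285; not with the replicate number as a block or without a trend, and of the libraries left out only without Clod-lip 2; limma adjusted p from 0.00172 to 0.123 over all alternatives). Thbs4, a thrombospondin of tendon and muscle, was at 316 ± 30.3 FPKM in Clod-lip against 254 ± 23.2 FPKM in Empty-lip, and passed without Clod-lip 2 (limma adjusted p = 0.0466, and up to 0.337 over the other alternatives). Tnc, tenascin-C, named after its values were seen, was at 40.6, 54.0 and 60.2 FPKM in Clod-lip and 78.95, 68.7 and 77.3 in Empty-lip, without overlap (log2 difference -0.55, limma adjusted p = 0.0793). Osteoblast markers summed to 28.0 to 32.0 FPKM in Clod-lip and 18.9 to 29.8 FPKM in Empty-lip, where 0 of 7 tested passed by limma, with or without Clod-lip 2, and 2 had an unadjusted p under 0.05. Ibsp and Bglap, proteins of bone matrix, were at 10.7 ± 2.31 and 6.06 ± 0.377 FPKM in Clod-lip, against 7.99 ± 1.91 and 4.19 ± 4.43 FPKM in Empty-lip. The cartilage factor Sox9 was at 4.37 ± 0.768 FPKM in Clod-lip against 3.29 ± 0.467 FPKM in Empty-lip, and 3110079O15Rik, from the same list, at 3.36, 2.38 and 2.17 FPKM in Clod-lip against 1.19, 0 and 1.06 FPKM in Empty-lip, with 0 of 3 tested cartilage markers passing by limma and 1 at an unadjusted p under 0.05. Contractile muscle genes summed to 29428 to 31983 FPKM in Clod-lip and 13380 to 18509 in Empty-lip, and 16 of 20 rose. The count was 16 without Clod-lip 2, 15 without Empty-lip 1, 9 without Empty-lip 3, and 0 with any single library of the other 3 left out. A block for replicate number left 8 passing, and 14 passed with low values kept or with no trend. Tnnt3, a troponin of fast muscle, was at 3877 ± 127 FPKM in Clod-lip against 1946 ± 323 FPKM in Empty-lip. The 4 genes short of the threshold, singled out with the results in view, were Tnni1, Tnnt1, Myh7 and Ttn. Tnni1 and Tnnt1 had negative log2 differences, -0.24 and -0.21, while those of Myh7 and Ttn were 0.20 and 0.69. Of these 4, only Ttn had groups that stood apart. The rise was thus not shared by the whole list. Empty-lip 3, lowest for 6 of the 10 proteoglycans, also had the lowest muscle, fibroblast and tendon sums. Clod-lip 3, highest for 7, had the highest of each. For the macrophage sum these libraries lay at the opposite ends. How many of all genes have these extremes was not counted. Macrophage markers summed to 3944 to 6827 FPKM in Clod-lip and 6954 to 7388 in Empty-lip, and 3 of 11 fell (Mrc1, Fcgr1 and Mertk). Without Clod-lip 2, 10 of 11 fell, and with any single library of the other 5 left out 0 passed. Over all genes, 10.7% passed without Clod-lip 2, and 17 to 302 genes passed with any of the other 5 left out. This is the background for the marker counts with a library left out. With the replicate number as a block 1 macrophage marker, Fcgr1, fell, and with no filter on low values or without a trend 0 passed. Over all genes 170 passed with the block, 312 with no filter and 284 without a trend, the background for marker counts under these settings. Lyz2 and C1qb, a lysozyme and a complement chain, were at 3197 ± 953 and 558 ± 174 FPKM in Clod-lip, against 4312 ± 125 and 821 ± 25.4 FPKM in Empty-lip. Lyz2 was the largest part of the macrophage sum. Cd163, named after its values were seen, was the 1 macrophage marker with a positive log2 difference, 0.14. It was at 20.8 ± 7.20 FPKM in Clod-lip against 18.2 ± 1.14 FPKM in Empty-lip. The part of these cell types in the values of the 10 genes was not tested.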

How the data were processed

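RNA from 3 Clod-lip and 3 Empty-lip samples was sequenced, and samples were grouped by their titles. The authors deposited FPKM per library, FPKM means per group, and p-values and q-values of their own comparison. TopHat and mm10 are named in the submitters' processing notes, with no version; the tool that made the FPKM is not given in the sources used here. FPKM are not counts, so no count test was run, and depth is unknown. For each gene that averaged 0.5 FPKM or more (13408 genes), limma 3.58.1 under R 4.3.3 compared log2(FPKM + 1) between the groups, letting the prior variance follow a trend; p-values were adjusted by Benjamini-Hochberg over these genes and called at 0.05. The test was also run on simulated data with 200 changed genes and independent noise, and the outcome is not reported here. Such data hold no shift of a whole library, so they cannot show how calls depend on a single library.

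The members and the 14 gene lists were chosen with earlier results of these data known. All 184 list entries matched a symbol, 4 of them through an older symbol in RefSeq. Named genes are the 10 members, the further family genes, up to 3 passing genes of each partner list by smallest p or else the 2 of highest FPKM, and the 2 of highest FPKM of each marker list; genes outside this rule are said to be so where named, and the genes passing in marker lists were named after their values were seen. Labels give no batch. Positions come from GENCODE M21 and promoter windows from RefSeq, both of the build of the files. Each result was also computed with a block for replicate number, with each library left out, with pseudocounts of 0.1 and 0.5, with every gene kept or only those averaging 5 FPKM or more, after quantile normalization, and with no trend in limma.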

Additional observations from a re-analysis of the deposited data

How the results depend on the processing

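Over all genes, 543 passed; the count was 170 with the replicate number as a block (replicate block), 312 with no filter on low values, 284 with limma without a trend, and between 17 and 1436 with a library left out. Of the 10 proteoglycan genes the count past the threshold was 0 with the replicate block, 1 with no filter, 1 without a trend and between 0 and 4 with a library left out. Of the partner genes it was 0 with the replicate block, 1 with no filter, 4 at a mean of at least 5 FPKM, and between 0 and 15 with a library left out. The cause was not tested. The median log2 difference of the 10 genes ran from 0.39 to 0.61 over the libraries left out, and all 10 genes had a positive difference under each alternative in which they were tested. Differences near 0 changed sign: with a library left out, Tsku ran from -0.20 to 0.0020, Podnl1 from -0.16 to 0.12, Col3a1 from -0.14 to 0.021, Col1a1 from -0.076 to 0.044, Pcolce from -0.032 to 0.072 and Prg4 from -0.029 to 0.13; under quantile normalization Col3a1 was at 0.033 and Col1a1 at 0.060. For libraries with the same number, deviations from group means correlated at -0.08, -0.04 and 0.08 over 13408 genes. For libraries with different numbers these correlations ran from -0.11 to 0.14. With 3 libraries per group they cannot show whether single genes pair. What a call lost under the block means was not tested. FPKM without counts leave the precision of Omd and other low genes unknown.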
